A study of Mus musculus with 4 samples.

Results

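The RNA of 10 genes that hold the mouse oocyte in meiosis or govern its exit from meiosis was followed in 2-cell embryos cultured with or without dimethyl sulfoxide (DMSO). The genes were Gpr3, Wee2, Cdc25b, Marf1, Spin1, Ccnb3, Aurkc, Mos, Fbxo43 and H1foo. They were chosen by symbol for what their proteins do, and all 10 were found among the 30049 Ensembl genes of the deposited table. Zygotes were wild type, from BDF1 females mated with BDF1 males (BDF1 being the first generation of C57BL/6 crossed with DBA/2), so the embryos were of the F2 generation. Starting 18 h after human chorionic gonadotropin was given, they spent 24 h in KSOM, an embryo culture medium, either plain (control) or with 2% DMSO, a common solvent for drugs and for freezing cells. Embryos that had reached the 2-cell stage were collected, 50 for each group, and 2 libraries per group were sequenced from amplified cDNA. Whether each library held 50 embryos or a share of them is not stated, and nothing in the labels says that the replicates came from separate cultures, so p-values here measure only the spread between these libraries.

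A mouse oocyte waits for months in prophase of meiosis I, because a receptor signal keeps cyclic AMP high and inhibiting kinases keep CDK1, the kinase that drives division, switched off. After the hormone surge CDK1 is activated, the oocyte passes through meiosis I and stops again at metaphase of meiosis II, where MOS keeps MAP kinase active and FBXO43 (also called EMI2) blocks the anaphase-promoting complex (APC/C), the ubiquitin ligase that destroys cyclin B. Fertilization sets off calcium waves that undo this block, and the messenger RNAs inherited from the egg are then cleared while the genome of the embryo is switched on around the 2-cell stage.

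Values were deposited as TPM, a relative abundance in which reads are scaled by transcript length and library total, so levels can be set side by side between genes. TPM keeps no depth, and the depth behind each value is unknown here. The column totals of the table were 768174 and 780527 TPM for control replicates 1 and 2, against 772487 and 799166 TPM for the DMSO pair. The 13 protein-coding genes of the mitochondrial genome took 10.8% and 12.4% of the control totals and 15.3% and 21.7% of the DMSO totals, and the part of this difference in the results below was examined only by rescaling without these genes. Of 12 markers of the oocyte, 8 had a higher mean in DMSO-treated embryos. The whole oocyte list summed to 12755 and 16064 TPM in control and 13711 and 17441 TPM in DMSO libraries. Dppa3, a maternal factor of the egg, was the most abundant. It was at 11639 and 15346 TPM in control and 10828 and 15216 TPM in DMSO libraries. Without it the list summed to 1116 and 718 TPM in control and 2883 and 2225 TPM in DMSO libraries. Nlrp5, an egg gene, was nearly absent, at 0 and 0.14 TPM in control and 0 and 0.13 TPM in DMSO libraries. Of 10 markers of the 2-cell stage 9 had a higher mean with DMSO, their sums being 901 and 657 TPM in control and 2393 and 1660 TPM in DMSO libraries. The part of these marker changes in the values of the 10 genes was not tested, and in such pooled embryos fewer embryos at a given step and less RNA per embryo cannot be told apart. The stage label thus met its markers in both groups.

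Markers of other cells were low. The 12 markers of cumulus and granulosa cells summed to 40.3 and 32.2 TPM in control and 13.1 and 20.2 TPM in DMSO libraries. Amhr2 was the most abundant of them, at 36.8 and 29.6 TPM in control and 8.29 and 16.5 TPM in DMSO libraries. Without it the sums were 3.51, 2.51, 4.80 and 3.70 TPM, with Amh and Inhba listed at 0 in all libraries. The 6 sperm markers summed to 2.96 and 3.38 TPM in control and 13.5 and 8.69 TPM in DMSO libraries, with Prm2 the most abundant and Tnp2 at 0. For the 6 markers of oviduct and blood, led by Ovgp1, the sums were 23.8, 23.9, 32.0 and 41.1 TPM. Ovgp1 itself was at 17.9 and 19.5 TPM in control and 26.2 and 33.2 TPM in DMSO libraries.

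Of the 10 genes, Spin1 alone passed the test between groups, and it was higher with DMSO. The test was limma, a linear model that pools information on the variance across genes, applied to log2(TPM + 1). It covered the 12038 genes averaging 1 TPM or more, among them all 10, and a gene was called at a Benjamini-Hochberg adjusted p-value under 0.05. Among all genes tested 20.5% were called, 6.42% higher and 14.1% lower with DMSO, against 1 of the 10 genes. At an unadjusted p under 0.05 the number was 4 of the 10 and 4835 of all. With the replicate number as a block, 5 of the 10 were called higher (Spin1, Wee2, Marf1, Fbxo43 and H1foo). In that fit 2151 of the 12038 genes tested were called higher and 2981 lower, or 42.6% in either direction. The labels do not tie a replicate number to a batch. Lower calls outnumbered higher ones by a margin that moved with the scaling, with 773 higher and 1697 lower on the deposited values, 949 and 1262 after median-ratio scaling, 858 and 1278 after rescaling without mitochondrial genes, and 1076 and 1121 after quantile normalization. Fold changes are on the log2(TPM + 1) scale, which understates those of low genes, and 5 of the 10 were above 0 and 5 below it, with a median of 0.43 against -0.09 for all genes tested. That median was 0.03 without control replicate 2, 0.09 without DMSO replicate 1 and 0.88 without DMSO replicate 2. Both DMSO libraries were above both control libraries for 4 of the 10 genes (31.1% of all genes tested) and below them for 3 (38.7% of all). For a single gene, an exact permutation test of 2 libraries against 2 cannot go below p = 0.33.

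**Figure D1:**
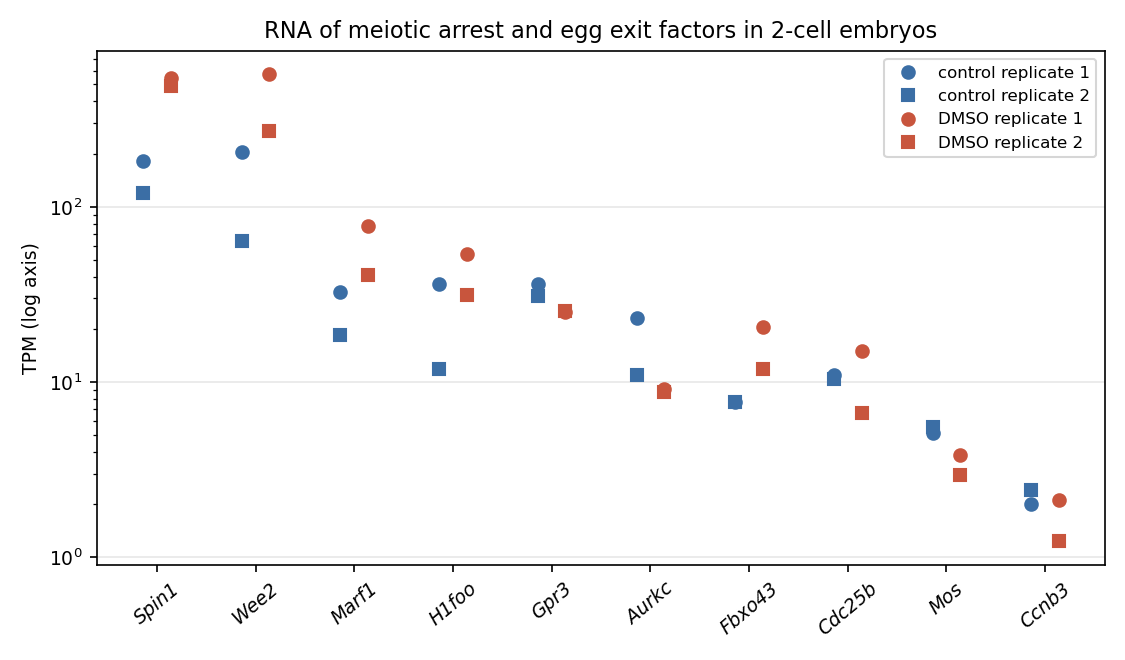
TPM (log axis) of the 10 genes in each library, ordered by their mean, with circles for replicate 1 and squares for replicate 2 of control (blue) and DMSO-treated (red) embryos. Spin1 and Wee2 stand above all others, and Spin1 at 547 and 492 TPM in the DMSO libraries lies clear of both control libraries (182 and 120 TPM).

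By abundance the 10 genes fell into 2 very rich messages and 8 modest ones. Their mean over the 4 libraries was 335 TPM for Spin1 and 279 TPM for Wee2, followed by 42.6 TPM for Marf1, 33.3 TPM for H1foo and 29.5 TPM for Gpr3. Lower down were Aurkc at 13.0, Fbxo43 at 12.0 and Cdc25b at 10.8 TPM. Mos and Ccnb3 were the rarest, at 4.35 and 1.95 TPM. The spread within groups leaves several neighbours in this order undecided, since the values of Spin1 and Wee2 overlapped in each group, as did those of Aurkc, Fbxo43 and Cdc25b taken over all libraries.

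The first group of genes belongs to the arrest in prophase and the release from it. Gpr3 (chromosome 4 of GRCm38 from 133209340 to 133212536) encodes the receptor that keeps cyclic AMP high in the oocyte. It was at 36.5 and 31.01 TPM in control and at 24.9 and 25.5 TPM in DMSO libraries. Both DMSO libraries lay below both controls and close to each other, but the log2 fold change of -0.40 (standard error 0.27) did not pass (limma adjusted p = 0.294). After quantile normalization this fold change was -0.20. Gpr3 overlaps Cd164l2 on the opposite strand, which had 56.6 and 55.2 TPM in control and 78.0 and 63.3 TPM in DMSO libraries, and 5.66% of the 31-base words of Gpr3 transcripts are found in it, so part of its reads may have been split.

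Wee2 (chromosome 6 from 40439088 to 40466813) encodes the egg form of the WEE kinases, which inhibit CDK1 by phosphorylation. Its RNA was at 207 and 64.1 TPM in control and at 572 and 272 TPM in DMSO libraries. The groups did not overlap, yet the libraries of each group were far apart, replicate 1 being 3.22-fold above replicate 2 in control and 2.11-fold in DMSO-treated embryos. On means the DMSO group was 3.12-fold higher, and the log2 fold change of 1.77 (standard error 0.60) missed the threshold (limma adjusted p = 0.0769). Without control replicate 2 it was 0.93, and without control replicate 1 it was 2.60.

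Cdc25b (chromosome 2 from 131186949 to 131198497) encodes the phosphatase that removes the marks set by WEE kinases and lets meiosis resume. It had 11.0 and 10.4 TPM in control and 15.1 and 6.63 TPM in DMSO libraries. The DMSO libraries lay on either side of both controls, and the log2 fold change was -0.08 with a standard error of 0.41 (adjusted p = 0.893, limma), turning to 0.01 after median-ratio scaling, 0.02 after quantile normalization and 0.46 without DMSO replicate 2. Spef1, which overlaps it on the opposite strand, was under 1 TPM in every library.

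Marf1 (chromosome 16 from 14109173 to 14163351) encodes an RNA-binding ribonuclease that oocytes need to resume meiosis and to keep retrotransposons silent. Nde1 and the microRNA gene Mir484 overlap it on the opposite strand, and 2.42% of its 31-base words are shared with other genes. Values were 32.8 and 18.6 TPM in control and 78.0 and 40.8 TPM in DMSO libraries. As for Wee2, replicate 1 was higher than replicate 2 in both groups, 1.76-fold and 1.91-fold. The difference of 1.16 on the log2 scale (standard error 0.42) missed the threshold (limma adjusted p = 0.0897), and it was 0.70 without DMSO replicate 1 and 0.77 without control replicate 2.

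Spin1 (chromosome 13 from 51100880 to 51152546) encodes spindlin, an abundant egg protein that binds methylated histone H3, is found on the meiotic spindle and acts in the resumption of meiosis. Its RNA rose from 182 and 120 TPM in control to 547 and 492 TPM in DMSO libraries, or 3.44-fold on means. This difference exceeded the distance between replicates of either group. Its log2 fold change was 1.80 with a standard error of 0.29 (adjusted p = 0.0203, limma), and both DMSO libraries were higher. With any 1 library left out the log2 fold change stayed between 1.50 and 2.11, while the adjusted p of limma was 0.0873 without control replicate 1, 0.160 without control replicate 2, 0.0879 without DMSO replicate 1 and 0.0380 without DMSO replicate 2. In the first 3 of these fits limma called 0 genes of the table, where 3745, 2602 and 3078 had an unadjusted p under 0.05. Of the 31-base words of Spin1 transcripts 5.89% are shared with other genes, mostly with the pseudogenes Gm7787 and Spin3-ps.

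Next came the genes of the divisions themselves. Ccnb3 (chromosome X from 6979652 to 7041619) encodes cyclin B3, which the oocyte needs to enter anaphase of meiosis I. It was at 2.00 and 2.43 TPM in control and at 2.12 and 1.23 TPM in DMSO libraries. The groups overlapped, and the log2 fold change was -0.28 with a standard error of 0.36 (adjusted p = 0.576, limma), ranging from -0.52 without DMSO replicate 1 to -0.04 without DMSO replicate 2.

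Aurkc (chromosome 7 from 6995300 to 7003091) encodes the germ cell Aurora kinase of the chromosomal passenger complex, which corrects attachments of chromosomes to the spindle. Its values were 23.3 and 10.9 TPM in control and 9.10 and 8.75 TPM in DMSO libraries. Control replicate 1 stood apart, and the other 3 libraries were close to one another. The log2 fold change of -0.78 with a standard error of 0.40 (adjusted p = 0.190, limma) became -0.27 without control replicate 1 and -1.29 without control replicate 2. Aurkc is uncertain for another reason, because 67.1% of the 31-base words in Aurkc transcripts are shared with other genes, and 45.3% of all its words occur in the processed pseudogene Gm12463, which was at 2.85 and 0 TPM in control and 2.64 and 0 TPM in DMSO libraries.

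The arrest at metaphase II is represented by Mos and Fbxo43. Mos (chromosome 4 from 3870657 to 3872105), the kinase at the head of the MAP kinase cascade of the egg, was at 5.14 and 5.51 TPM in control and at 3.83 and 2.94 TPM in DMSO libraries. The log2 fold change was -0.54 with a standard error of 0.32 (adjusted p = 0.248, limma), with both DMSO libraries lower. Fbxo43 (chromosome 15 from 36150060 to 36164884), the inhibitor of the APC/C, was on the other side of 0. Its control libraries agreed closely, at 7.71 and 7.74 TPM, and its DMSO libraries were higher but apart, at 20.5 and 11.9 TPM. The log2 fold change of 0.93 (standard error 0.35) missed the threshold (limma adjusted p = 0.0982), and it was 0.56 without DMSO replicate 1. The RNAs of these partners in the same arrest thus had opposite signs, neither of them past the test.

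H1foo (chromosome 6 from 115944938 to 115950236) encodes the linker histone of the oocyte, which packs its chromatin and is later replaced by other linker histones. It was at 36.4 and 11.8 TPM in control and at 53.5 and 31.4 TPM in DMSO libraries. DMSO replicate 2 lay below control replicate 1, so the groups overlapped, and replicate 1 of the control was 3.08-fold above replicate 2. The log2 fold change was 0.94 with a standard error of 0.54 (adjusted p = 0.229, limma), but 0.17 without control replicate 2, 0.57 without DMSO replicate 1 and 1.72 without control replicate 1.

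**Figure D2:**
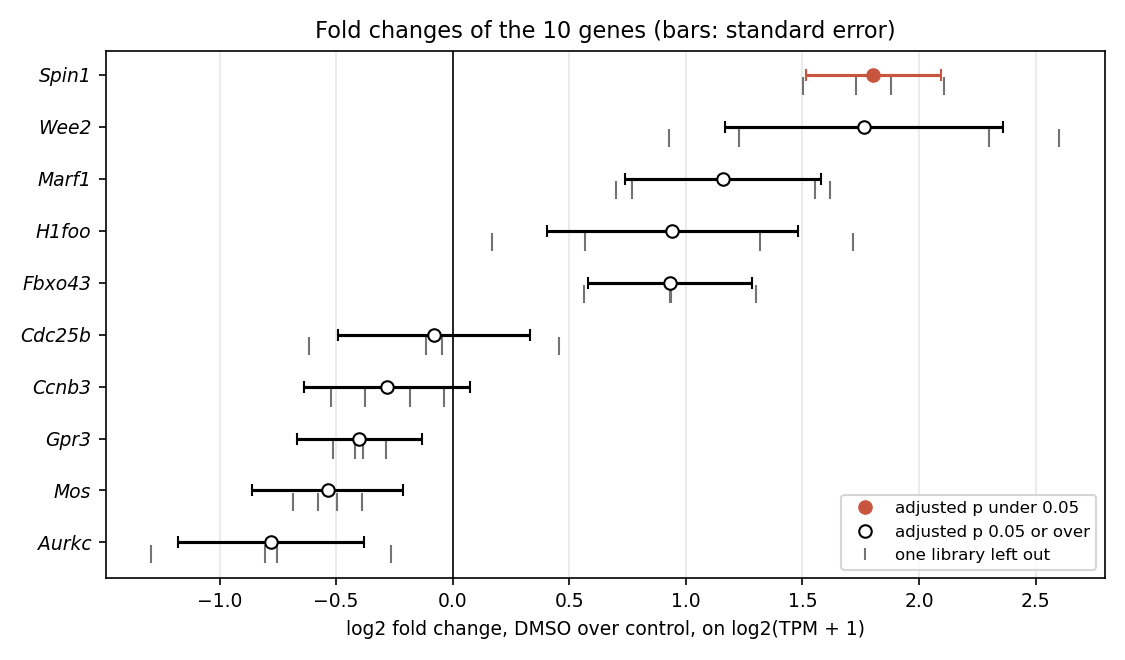
Log2 fold change of each gene, DMSO over control, on log2(TPM + 1), with bars for the standard error and grey ticks for the value with 1 library left out. Spin1, the filled point at 1.80, is the 1 gene with an adjusted p under 0.05, and the ticks of Wee2 spread from 0.93 to 2.60.

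Egg messages are often stored with short poly(A) tails and lengthened when they are needed, a step guided in part by the cytoplasmic polyadenylation element, whose letters are TTTTAT or TTTTAAT in DNA, close to the hexamer AATAAA or ATTAAA that marks the site of cleavage. The last 100 bases of the longest protein-coding transcript of each gene (GENCODE M21) were searched for these letters on the strand of the transcript. The hexamer was found in 10 of the 10 genes and in 80.5% of the 10739 protein-coding genes tested, and the element in 5 of the 10, namely Wee2, Spin1, H1foo, Aurkc and Ccnb3, against 18.5% of those tested and 16.6% of all 21852 protein-coding genes. A match describes the letters and is not shown to be a working site. The cDNA kit primes at poly(A) tails, and the part of tail length in the TPM values was not tested. The genes with the element had log2 fold changes from -0.78 (Aurkc) to 1.80 (Spin1), and those without it from -0.54 (Mos) to 1.16 (Marf1), so the ranges overlapped. The windows of 30 bases that hold the element nearest to the 3′ end are shown for these 5 genes, read 5′ to 3′ on the transcript strand, with the element in capitals, on GRCm38 at chr6:40466780-40466809 (plus strand) for Wee2, chr13:51152473-51152502 (plus) for Spin1, chr6:115950157-115950186 (plus) for H1foo, chr7:7003045-7003074 (plus) for Aurkc and chrX:6979702-6979731 (minus) for Ccnb3.
Wee2: tcattgtaaataaagaTTTTATcttatcca
Spin1: tctgtaagtaatTTTTATaattatgatgta
H1foo: cgattctgaagcTTTTATtgtctaataagc
Aurkc: ctcTTTTATgaagtgatgttaattaaaact
Ccnb3: tcttgaaattacTTTTATgaaagaagagaa

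In Wee2 the element shown begins 18 bases from the annotated end, after the hexamer, and a second one (TTTTAAT), outside the window, lies ahead of the hexamer. In Aurkc the element begins 44 bases from it, ahead of the hexamer. It begins 62 bases from the end in Spin1 and 68 bases from it in H1foo and Ccnb3.

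The proteins these 10 genes act on or with were followed in 9 lists of 85 genes, drawn up by what the genes do. Of the 71 that were tested, 5 were called higher and 5 lower with DMSO, which is 14.1% and below the share of calls over all genes (20.5%). With the replicate number as a block the share was 45.1%, against 42.6% over all genes. The median log2 fold change over the lists was -0.15. Medians were above 0 for the lists of cyclic AMP, MAP kinase, calcium, linker histones and decapping, and below 0 for those of CDK1, the APC/C, the chromosomal passengers and the spindle checkpoint, under every scaling tried. With no filter on low values the median of the APC/C list was 0.01 and that of the MAP kinase list 0.03. With any 1 library left out, which leaves a lone library in its group, the fold changes of the 10 called genes kept their signs. Their calls were all lost with control replicate 1, control replicate 2 or DMSO replicate 1 left out. Without DMSO replicate 2 some of these calls were lost, and a gene not called in the main fit, Gnas, passed.

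**Figure D3:**
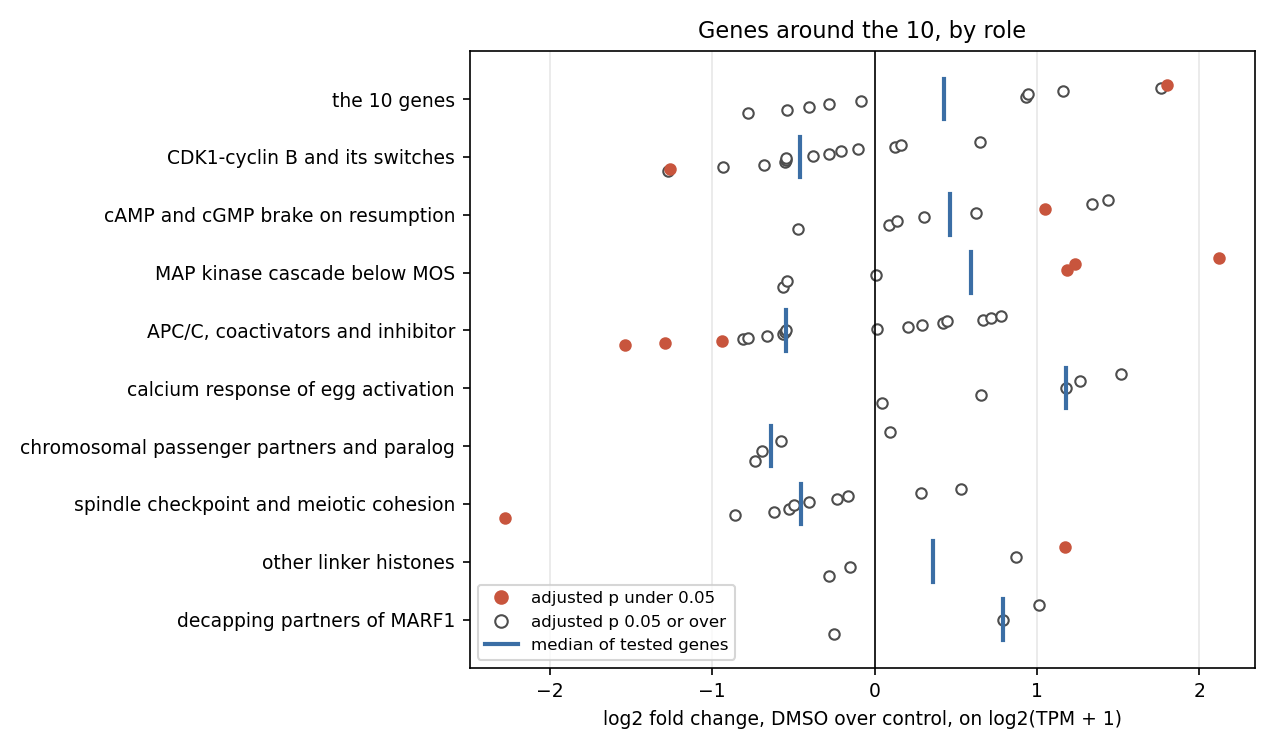
Log2 fold change, DMSO over control, on log2(TPM + 1), of every tested gene in the 10 genes and in 9 lists of partner genes, with filled red points for an adjusted p under 0.05 and a blue line for the median of the list. The 3 called genes below MOS lie to the right, and those of the APC/C and of the spindle checkpoint to the left.

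With the main settings, the MAP kinase cascade below MOS held the most calls to the higher side among the 9 lists. Of its 6 tested genes 3 rose, 0 fell and 3 did not pass, where 6.42% of all genes tested were called higher, and the median log2 fold change was 0.60. With the replicate number as a block this list had 3 higher calls among its 6 tested genes. The cyclic AMP (8 tested), calcium (5 tested) and APC/C (17 tested) lists also had 3 each, the APC/C list with 6 lower calls besides. That fit called 2151 of the 12038 genes tested higher and 2981 lower. Mapk3, which encodes the MAP kinase ERK1, rose from 25.6 and 14.5 TPM in control to 107 and 71.3 TPM in DMSO libraries (2.12 ± 0.37 on the log2 scale, SE, with adjusted p = 0.0218 by limma). Map2k1, the kinase that MOS phosphorylates, rose from 49.5 and 39.9 to 125 and 84.0 TPM (1.18, limma adjusted p = 0.0406). Rps6ka3, a kinase that ERK activates, rose from 7.05 and 6.41 to 20.8 and 14.2 TPM (1.23, limma adjusted p = 0.0423). Map2k1 was not called by limma without a trend (adjusted p = 0.0572). Map2k2, the close relative of Map2k1, had a log2 fold change of -0.54 and did not pass. Rps6ka2 was too low to be tested. Mos itself, at the head of the cascade, had lower values in both DMSO libraries, as given above.

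In the list around cyclic AMP and cyclic GMP, 1 of 8 tested genes rose (6.42% of all genes tested were called higher) and 0 fell, with a median of 0.47, or 0.14 with no filter on low values. Prkar2b, a regulatory subunit of protein kinase A, rose from 13.4 and 10.2 TPM to 26.8 and 23.9 TPM (log2 fold change 1.05, limma adjusted p = 0.0498), just inside the threshold, and outside it with a pseudocount of 0.1 (limma adjusted p = 0.0550) or without a trend (0.0594). Gnas, the G protein through which GPR3 acts, was the most abundant of the list, at 22.5 and 11.3 TPM in control and 67.3 and 29.97 TPM in DMSO libraries, and did not pass (limma adjusted p = 0.0764). Gpr12, a receptor related to GPR3, was listed at 0 in 3 libraries and was not tested. Of the 5 tested genes of the calcium response at egg activation, none was called by limma, where 20.5% of all genes tested were called. An unadjusted p under 0.05 was found for 3 of the 5 and for 4835 of the 12038 genes tested. A fold change above 0 was found for 5 of 5, and for 5637 of the 12038. The median was 1.18, but 0.77 without control replicate 2 and 0.66 with no filter on low values. Camk2g, the kinase that relays the calcium signal to the loss of FBXO43, was at 9.57 and 2.73 TPM in control and 20.9 and 13.7 TPM in DMSO libraries (limma adjusted p = 0.0828). Itpr1, the calcium channel of the egg's internal stores, was at 4.49 and 2.32 TPM in control and 9.44 and 9.08 TPM in DMSO libraries (limma adjusted p = 0.0532). Ppp3r1, the regulatory subunit of calcineurin and the most abundant of the list, was at 14.9 and 10.5 TPM in control and 36.4 and 24.2 TPM in DMSO libraries (limma adjusted p = 0.0522). Itpr1 and Ppp3r1 did pass after median-ratio scaling (limma adjusted p = 0.0441 and 0.0422).

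For CDK1 with cyclin B and their switches, 0 of 14 genes, all tested, rose, 1 fell (14.1% of all genes tested were called lower) and 13 did not pass. The median was -0.46, or -0.23 with 0 calls after quantile normalization, and 9 of the 14 had both DMSO libraries below both controls (38.7% of all genes tested). Cdc25c, a phosphatase that activates CDK1, fell from 185 and 133 TPM to 64.8 and 65.2 TPM (-1.26 ± 0.27 on the log2 scale, SE, with adjusted p = 0.0300 by limma), and after quantile normalization its adjusted p was 0.0518. Ccnb1, cyclin B1 and the most abundant of the list, had 1078 and 949 TPM in control and 676 and 586 TPM in DMSO libraries (-0.68, limma adjusted p = 0.0869).

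Of the 17 tested genes of the APC/C list 0 rose, 3 fell and 14 did not pass, where 14.1% of all genes tested were called lower. Of the 17, 8 had a fold change above 0 and 9 below it, so that the median of -0.55 was -0.28 without control replicate 1, -0.32 without DMSO replicate 2 or after quantile normalization and -0.27 with the filter at 5 TPM. Those that fell are subunits of the complex. Anapc7 went from 82.6 and 69.0 TPM to 19.8 and 32.5 TPM (log2 fold change -1.54, limma adjusted p = 0.0285), Anapc13 from 7.88 and 5.97 to 2.22 and 2.21 TPM (-1.29, limma adjusted p = 0.0402) and Cdc27 from 128 and 113 to 65.7 and 58.9 TPM (-0.94, limma adjusted p = 0.0448). Cdc27 passed in none of the other scalings, nor with a pseudocount of 0.1 or without a trend (limma adjusted p from 0.0516 to 0.0971). Ube2s, the ubiquitin-conjugating enzyme that extends chains for the APC/C and the most abundant of the list, had a log2 fold change of 0.67 and did not pass (643 and 637 TPM in control, 979 and 1056 TPM in DMSO libraries, limma adjusted p = 0.0836).

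Among 10 tested genes of the spindle checkpoint and of meiotic cohesion, Bub3 fell from 48.0 and 31.3 TPM to 8.04 and 6.49 TPM (-2.27 ± 0.33 on the log2 scale, SE, with adjusted p = 0.0181 by limma). BUB3 carries checkpoint proteins to kinetochores. The other 9 did not pass, where 14.1% of all genes tested were called lower, and the median of the list was -0.45, or -0.21 without control replicate 1 and -0.28 without DMSO replicate 2. Mad2l1, the checkpoint protein with the highest level here, was at 215 and 231 TPM in control and 341 and 216 TPM in DMSO libraries. Of the 4 chromosomal passenger genes none was called by limma, where 20.5% of all genes tested were called. An unadjusted p under 0.05 was found for 2 of the 4 and for 4835 of the 12038 genes tested. Aurkb, the paralog of Aurkc in dividing cells, was at 54.9 and 40.6 TPM in control and 27.4 and 28.5 TPM in DMSO libraries (limma adjusted p = 0.102), Incenp at 117 and 88.3 and at 66.1 and 58.8 TPM, and Cdca8, the most abundant, at 787 and 595 and at 519 and 405 TPM. With the replicate number as a block, which the labels do not give as a batch, these 3 were called lower (limma adjusted p = 0.0403, 0.0289 and 0.0205). In that fit 2981 of the 12038 genes tested were called lower.

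Of the 4 tested linker histones other than H1foo, 1 rose, where 6.42% of all genes tested were called higher. This was H1f0, the linker histone of cells that rarely divide, which went from 18.6 and 17.1 TPM to 47.7 and 36.1 TPM (1.17 ± 0.29 on the log2 scale, SE, with adjusted p = 0.0369 by limma). Of the decapping factors that work with MARF1 3 were tested and none was called by limma, where 20.5% of all genes tested were called. An unadjusted p under 0.05 was found for 2 of the 3 and for 4835 of the 12038 genes tested. Dcp2 did pass after quantile normalization (limma adjusted p = 0.0475). Dcp2, the decapping enzyme, was at 20.4 and 18.6 TPM in control and 38.4 and 30.9 TPM in DMSO libraries, and Dcp1a, its activator, at 10.7 and 6.84 and at 24.9 and 13.4 TPM.

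Several of the 10 genes have a relative or a counterpart that is not particular to the egg. The ratio of their TPM within a library does not change when the library is scaled by a single factor, but quantile normalization can change it. These 9 pairs were chosen after the values had been seen. In 2 of the 9 both DMSO libraries had a higher ratio than both controls, in 0 a lower one, and in 7 the groups overlapped, where an exact permutation test cannot go below p = 0.33. Wee2 outweighed Wee1 8.95-fold and 2.99-fold in control and 36.9-fold and 14.7-fold in DMSO libraries, so the egg form was the richer message in every library. Its ratio to Pkmyt1, the other inhibiting kinase of CDK1, was 18.2 and 3.81 in control and 55.5 and 17.0 in DMSO libraries, where the groups overlapped. Cdc25b had a ratio to Cdc25c of 0.0593 and 0.0784 in control and 0.232 and 0.102 in DMSO libraries, with Cdc25c, as given above, the gene that fell.

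The remaining ratios overlapped between groups. Fbxo43 stood to Fbxo5, its relative in mitosis, at 0.0554 and 0.0973 in control and 0.0922 and 0.0809 in DMSO libraries. Aurkc stood to Aurkb at 0.424 and 0.269 in control and 0.332 and 0.307 in DMSO libraries, so the lower values of both genes with DMSO left their ratio inside the control range. H1foo was at 1.95 and 0.689 times the level of H1f0 in control and at 1.12 and 0.870 times in DMSO libraries. For Aurkc over Aurka the ratios were 0.110 and 0.0688 in control and 0.0846 and 0.103 in DMSO libraries, and for Cdc25b over Cdc25a 1.04 and 0.720 against 1.27 and 0.788. Ccnb3 was far below Ccnb1, at 0.00185 and 0.00256 of its level in control and 0.00314 and 0.00210 in DMSO libraries. In every library Aurkc, Fbxo43 and Ccnb3 were rarer than the counterpart, and Wee2 richer.

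**Figure D4:**
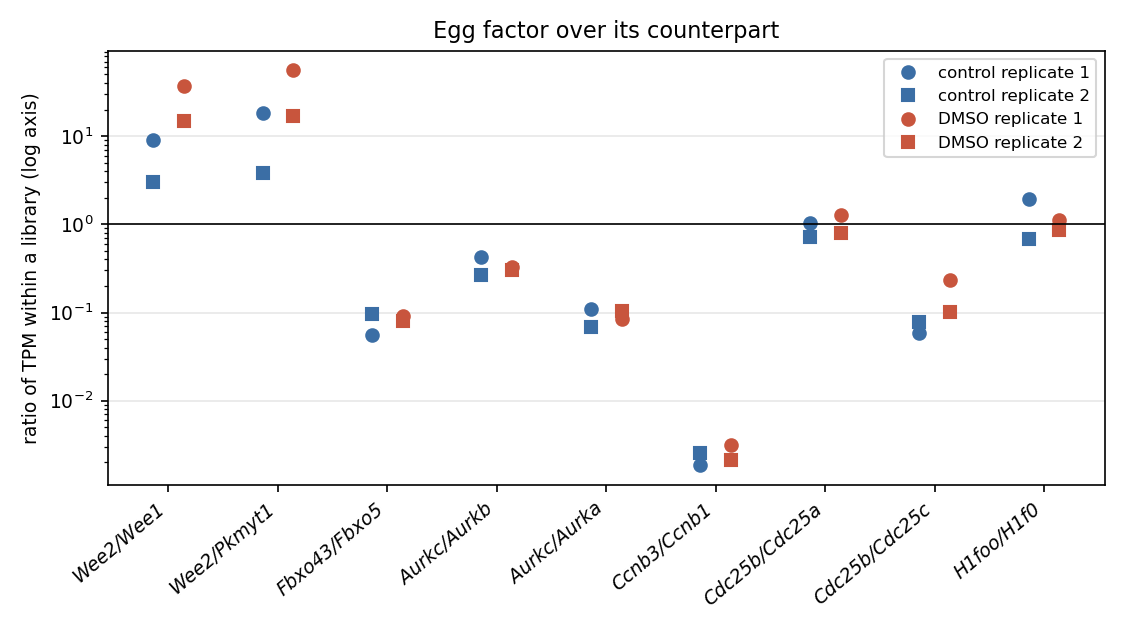
Ratio of the TPM of an egg factor to that of its counterpart within each library (log axis), with circles for replicate 1 and squares for replicate 2 of control (blue) and DMSO-treated (red) embryos and a line at 1. Wee2 over Wee1 is above 1 in all libraries and highest in the DMSO libraries (36.9 and 14.7), while the ratios of Aurkc overlap between groups.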

How the data were processed

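The 4 libraries of 2-cell embryos, 2 control and 2 DMSO-treated, were grouped by the sample titles. The authors made cDNA with a low-input kit that primes at poly(A) tails, pseudoaligned the reads with kallisto to Ensembl transcripts of GRCm38 and summed transcripts per gene with tximport, and the deposited values are TPM. No count test was run, since TPM values are not counts. The labels also name STAR, SAMtools and bedtools, with no role.

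Symbols, positions and transcripts came from GENCODE M21 (GRCm38), which names 29589 of the 30049 identifiers. It is a later release than the annotation the authors used. Genes averaging 1 TPM or more were fitted on log2(TPM + 1) in limma 3.58.1 (R 4.3.3, lmFit, eBayes with a trend, Benjamini-Hochberg adjustment at 0.05), with no replicate block. The fit was tested on simulated data. Shared sequence was counted as 31-base words on either strand. Python 3.11.15 and pandas 2.3.3 did the rest.

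The 10 genes, the lists and the tests were chosen with earlier results of these data known. Partner genes are named as the most abundant of a list and up to 3 called genes in each direction, or the 2 with the largest fold change where none was called. Some relatives were named beside these after their values had been seen. The alternatives were a pseudocount of 0.1, no filter, a filter at 5 TPM, no trend, median-ratio scaling, quantile normalization, rescaling without mitochondrial genes, the replicate block and leaving out each library. Raw reads were not used here.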

Additional observations from a re-analysis of the deposited data

How the results depend on the processing

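Of the 10 genes 1 was called (Spin1), and of the partner genes 10. With no filter on low values limma called 0 of the 10, 0 partner genes and 0 genes in all, where 2, 27 and 5368 had an unadjusted p under 0.05. Other filters, pseudocounts, scalings and the fit without a trend called 1 of the 10 (Spin1) and 7 to 12 partner genes. These were 9.86% to 19.7% of the partner genes tested, where 16.8% to 32.8% of all genes tested were called. The 12 calls came with the filter at 5 TPM, out of 61 tested, where the share over all genes was 32.8%. Leaving out 1 library gave 0 to 1 of the 10, 0 to 6 partner genes and 0 to 1883 genes in all, the lone library of a group being assumed to vary like the others. With the replicate number as a block 5 of the 10 were called, all higher (Spin1, Wee2, Marf1, Fbxo43 and H1foo). That fit called 32 partner genes, or 45.1% of the 71 tested, and 5132 genes in all, or 42.6% of those tested. Of the partner genes called, 15 were higher and 17 lower, and of all genes called 2151 were higher and 2981 lower. Same-numbered libraries deviated together (r = 0.35 over genes, which are no replicates), but nothing in the labels says that a number marks a shared batch. The log2 fold change of Cdc25b was 0.0108 with median-ratio scaling, 0.0171 with quantile normalization and 0.00402 without mitochondrial genes, and it ran from -0.62 to 0.46 as 1 library was left out. That of Mad2l1 ran from -0.044 to 0.61. The cause was not tested. The other 9 of the 10 genes had 1 sign in every setting run, Mos and Ccnb3 having no value with the filter at 5 TPM, where the median of the 10 genes was 0.94 over 8. TPM values give no counting error, so a difference in Mos or Ccnb3, at a few TPM, cannot be set against depth.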
